A study of Mus musculus with 8 samples.

Results

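The control libraries of this series describe the baseline transcriptome of mouse neural stem and precursor cells grown from the embryonic telencephalon. All 3 control RNA libraries were used, out of 6 RNA libraries and 8 samples, and every one of the 23997 gene symbols in each was kept. The cells came from the telencephalon of E11.5 fetuses (embryonic age in days) of the outbred ICR strain and are labelled stage E11. They were plated on dishes coated with poly-L-ornithine and fibronectin, in N2-supplemented medium with 10 ng/mL of basic fibroblast growth factor. RNA was taken 3 days after transduction. The labels give the treatment only as control and do not say what vector, if any, the control cells received. The labels also do not say whether the 3 libraries came from separate cultures, so the spread between them may be technical. Poly(A) RNA was sequenced, and levels are FPKM (fragments of a gene model scaled by its length and by library size), a unit that corrects for model length and so allows genes to be set side by side. Each value below is the mean ± SD over the 3 libraries (n = 3), with its rank among all symbols. With 1 group there was no contrast to test.

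At this age the wall of the telencephalon is built of neuroepithelial and radial glial cells, which divide beside the ventricle and keep themselves undifferentiated through SOX factors and Notch signalling. They give rise to neurons first and to astrocytes and oligodendrocytes later. Dorsal precursors, under EMX, PAX and LHX factors, produce glutamatergic neurons, and ventral precursors, under GSX, DLX and NKX factors, produce GABAergic neurons. In culture, basic fibroblast growth factor keeps such cells dividing. A bulk library mixes all of these cells, and fewer cells of a type cannot be told apart from less RNA per cell.

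The 6 marker genes of neural precursors and their progeny were all present, at ranks from 3 to 1047 (the plot of marker levels by library). Fabp7, the brain lipid-binding protein of radial glia, was listed at 3608, 3458 and 3211 FPKM in control 1, 2 and 3 (3426 ± 200, rank 3). By its mean it stood above every other gene apart from a pair of microRNA models, but Tmsb4x was within its spread and above it in control 3 (3272 FPKM). Vim, the intermediate filament vimentin, was listed at 1859, 2007 and 1799 FPKM (1888 ± 107, rank 8). Tubb3, the neuronal beta-tubulin, reached 651, 602 and 574 FPKM (609 ± 38.8, rank 66). Sox2, the HMG-box factor that maintains neural precursors, was listed at 222, 238 and 228 FPKM (229 ± 8.21, rank 286). These markers kept the same order in each library. Olig2, a basic helix-loop-helix factor of ventral and oligodendrocyte precursors, was listed at 126, 145 and 138 FPKM (136 ± 9.48, rank 630). Nes, the precursor filament nestin, was lowest of the 6 at 88.2, 97.9 and 88.0 FPKM (91.4 ± 5.67, rank 1047). The ranges of neighbouring genes in this order did not overlap. The ratio of Tubb3 to Nes was 6.68 ± 0.628.

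**Figure D1:**
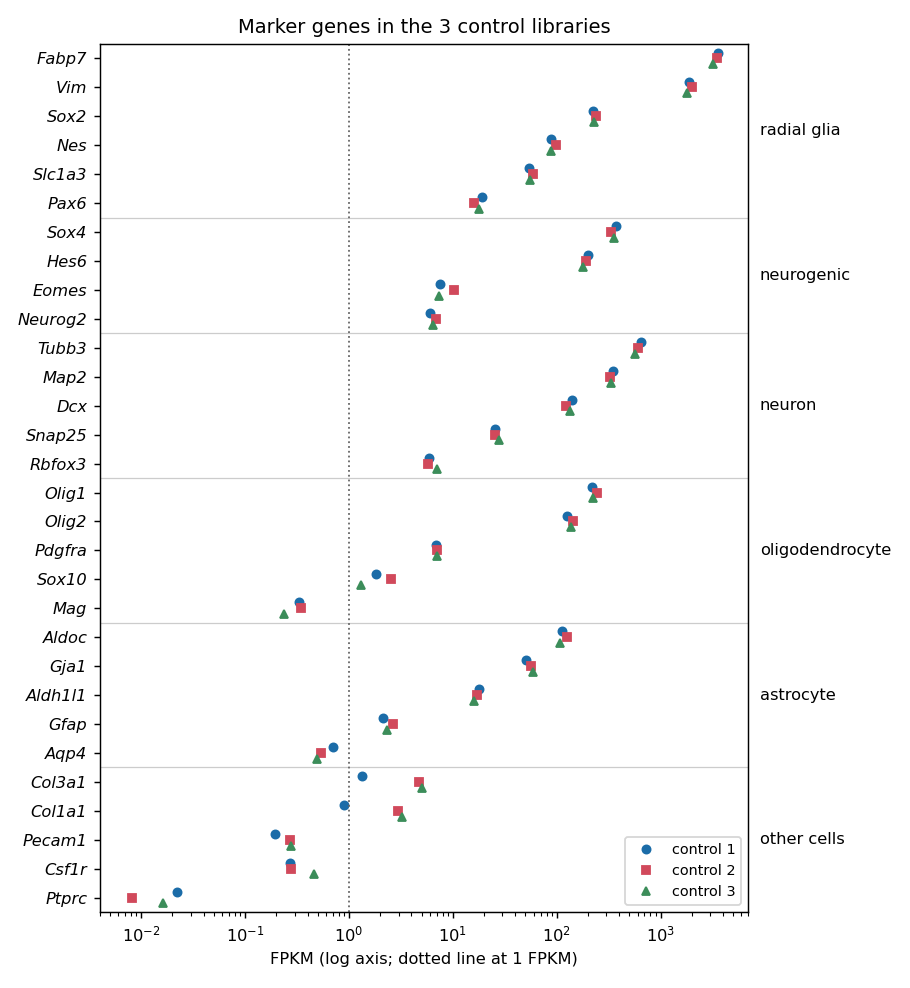
Level of each marker gene (rows, grouped by the cells they mark) in FPKM on a log axis, with 1 symbol for each control library and a dotted line at 1 FPKM. The radial glial, neurogenic and neuronal markers drawn lie above 1 FPKM and Pecam1, Csf1r and Ptprc below it. Neurog1 and Neurod4 of the neurogenic list, at 0.366 and 0.551 FPKM, are not drawn. Col1a1 and Col3a1 are lower in control 1 than in the other libraries.

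The genome of GRCm38 places Fabp7 at chr10:57784923-57788450, Vim at chr2:13574311-13582826, Sox2 at chr3:34649995-34652461, Olig2 at chr16:91225550-91228677, Tubb3 at chr8:123411553-123422015 and Nes at chr3:87971093-87980451. The promoters of 3 of these, and of the olfactory receptor with the highest level, are shown because they span the range of CpG content that is set against expression further on. Each runs 5′ to 3′ on the gene's own strand, from 250 bases before the start to 50 after it, from RefSeq on GRCm38.p6. Capitals mark every CG, and TATAAA where it lies from 40 to 17 bases before the start. 
Fabp7, chr10:57784673-57784972, plus strand: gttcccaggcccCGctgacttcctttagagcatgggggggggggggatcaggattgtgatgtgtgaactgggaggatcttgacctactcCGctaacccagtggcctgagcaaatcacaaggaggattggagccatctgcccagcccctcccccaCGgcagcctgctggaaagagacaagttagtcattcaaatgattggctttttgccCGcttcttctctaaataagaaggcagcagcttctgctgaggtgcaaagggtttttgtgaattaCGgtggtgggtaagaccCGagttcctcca
Vim, chr2:13574061-13574360, plus strand: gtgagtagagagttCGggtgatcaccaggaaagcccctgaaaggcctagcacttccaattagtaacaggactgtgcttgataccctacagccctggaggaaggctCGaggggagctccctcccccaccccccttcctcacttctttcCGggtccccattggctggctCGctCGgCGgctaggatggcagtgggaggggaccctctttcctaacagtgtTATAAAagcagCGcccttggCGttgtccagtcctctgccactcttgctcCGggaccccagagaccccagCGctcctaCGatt
Sox2, chr3:34649745-34650044, plus strand: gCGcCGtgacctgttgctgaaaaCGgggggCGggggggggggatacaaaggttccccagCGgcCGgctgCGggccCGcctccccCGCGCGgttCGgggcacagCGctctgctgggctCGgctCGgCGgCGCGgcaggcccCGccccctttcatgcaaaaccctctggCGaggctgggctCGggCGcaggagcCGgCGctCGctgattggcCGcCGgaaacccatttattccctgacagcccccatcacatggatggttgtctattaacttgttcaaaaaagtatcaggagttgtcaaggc
Olfr1318, chr2:112155648-112155947, plus strand: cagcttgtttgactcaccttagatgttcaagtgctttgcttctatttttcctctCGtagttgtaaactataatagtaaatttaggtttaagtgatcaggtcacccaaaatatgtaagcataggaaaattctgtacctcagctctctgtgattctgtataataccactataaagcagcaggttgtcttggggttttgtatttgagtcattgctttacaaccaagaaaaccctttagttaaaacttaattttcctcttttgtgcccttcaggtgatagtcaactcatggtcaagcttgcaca
Fabp7 and Vim, the marker genes of highest level, held 6 and 11 CG pairs in this window. Sox2 held 27 at a far lower level of RNA, and Olfr1318, at 0.787 FPKM, held 1. Of the 4, only Vim held TATAAA in that span.

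The libraries were alike in size and composition. Depth is not given in the files. From the steps in the values of low genes, control 2 had 0.906 and control 3 had 0.912 times the depth of control 1. The FPKM of all symbols summed to between 474010 and 492423 per library. Between 12320 and 12459 symbols were at 1 FPKM or more in a library, and between 6860 and 7172 were listed at 0. Over the 3-library means, 12487 symbols (52.0%) reached 1 FPKM, 7567 (31.5%) reached 10, 931 (3.88%) reached 100 and 27 (0.113%) reached 1000. The median over all symbols was 1.42 FPKM, and 5743 symbols (23.9%) were listed at 0 in all 3. A value of 0 can be a failed estimate, since the ribosomal protein gene Rpl26 was also listed at 0. Of the 19241 symbols that RefSeq calls protein coding, 11175 (58.1%) reached 1 FPKM, against 269 of 1713 long noncoding genes (15.7%).

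Cytoskeletal and translation genes made up most of the top of the list. Beside Fabp7 and Vim, the 20 highest genes outside short RNA models held Tmsb4x, which binds actin monomers (3418 ± 154 FPKM, rank 4), and Eef1a1, the elongation factor that brings aminoacyl-tRNA to the ribosome (2794 ± 118, rank 5). Tuba1a, the main alpha-tubulin of young neurons, was at 1837 ± 83.9 FPKM and Actb, beta-actin, at 1742 ± 61.3. Nnat, an imprinted gene for a small membrane protein of developing brain, was listed at 2182, 2103 and 2226 FPKM (2170 ± 62.1, rank 6). It was the highest of the 20 listed imprinted genes, 19 of which reached 1 FPKM. The 20 also held ribosomal proteins, among them Rpl41, Rplp1, Rpl8, Rps15 and Rps26, together with Hsp90ab1, Cfl1, Gnas, Ckb, Tubb5, Gnb2l1 and Ubb. Ckb, the brain creatine kinase, was at 1308 FPKM.

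Ribosomal protein genes took 7.05%, 7.20% and 6.79% of the FPKM total in control 1, 2 and 3. Of 91 such symbols 87 reached 1 FPKM, with a median of 255 FPKM, and Rpl41 was the highest at 1610. Rpl10l, Rpl26 and Rpl39l were listed at 0. Nuclear genes of the respiratory chain and ATP synthase took 3.39%, 3.47% and 3.31%, with 87 of 92 at 1 FPKM or more and a median of 139 FPKM. Atp5b, the beta subunit of ATP synthase, was highest among them at 920 FPKM, followed by Cox4i1 at 731 and Ndufa4 at 631. Proteasome genes had a median of 122 FPKM, with 36 of 40 at 1 FPKM or more. Each of these medians lies far above that of all symbols.

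All 17 listed glycolysis genes reached 1 FPKM, with a median of 81.2 FPKM. Pkm, pyruvate kinase, led at 580, 542 and 534 FPKM (552 ± 24.7), followed by Aldoa at 353 ± 14.9. Pkm exceeded Gapdh 7.03 ± 0.216 times. Gapdh (78.6 ± 6.02 FPKM) and Eno1 (9.89 ± 4.49 FPKM) have many near-identical copies that can take their reads, and Eno1b was listed at 250 FPKM, so their levels are uncertain. Ldha, the lactate dehydrogenase subunit of glycolytic tissue, was at 211 ± 8.62 FPKM and exceeded Ldhb 1.94 ± 0.172 times.

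Every one of the 30 genes listed for neural stem cells and radial glia reached 1 FPKM, with a median of 56.1 FPKM against 1.42 for all symbols. Among transcription factors of this list, Lhx2, a LIM homeobox factor of the cortical primordium, was listed at 88.3, 93.0 and 91.1 FPKM (90.8 ± 2.33). Sox9 was at 59.8 ± 4.66, Sox1 at 51.7 ± 1.93, Sox3 at 46.7 ± 3.01 and Sox21 at 42.3 ± 1.82 FPKM. Pax6, the paired-box factor of cortical radial glia, was lower, at 19, 16.1 and 17.8 FPKM (17.6 ± 1.44), and Sox2 exceeded it 13.1 ± 1.56 times. Among the proteins of the cell body, Dbi, the acyl-CoA-binding protein, was at 502 ± 36.5 FPKM. Ptprz1, a receptor phosphatase of radial glia, was at 131 ± 2.05 and Cdh2, N-cadherin of the apical junctions, at 110 ± 0.842. Slc1a3, the glutamate transporter GLAST, was listed at 54.1, 59.5 and 55.8 FPKM (56.5 ± 2.75), and Fabp7 exceeded it 60.8 ± 5.08 times. The lowest member was Celsr1, a planar polarity cadherin, at 1.37 ± 0.0802 FPKM. The levels of these radial glial genes ran from 1.37 to 3426 FPKM with little spread between libraries.

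**Figure D2:**
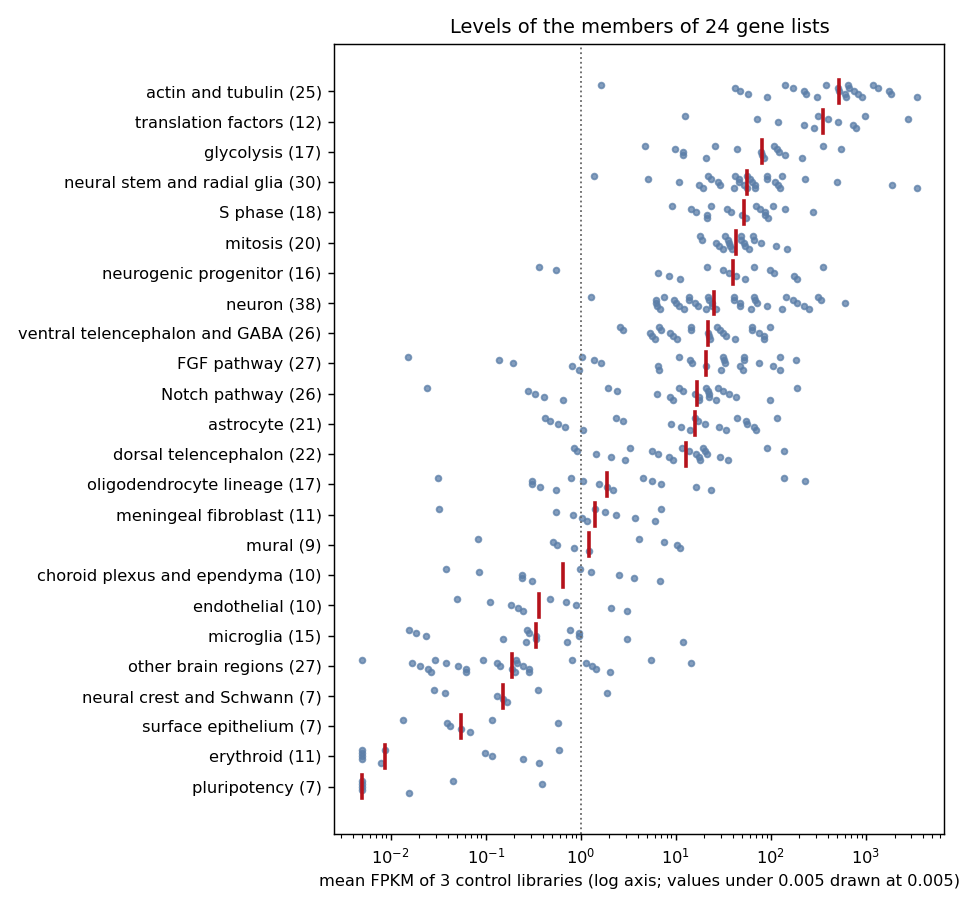
Mean level over the 3 control libraries (FPKM, log axis) of every member of the gene lists drawn, which are not all of the lists. Each point is 1 gene and each bar the list's median, with the number of members in brackets and a dotted line at 1 FPKM. The lowest values are drawn at a common floor. Every radial glial and neuronal member lies above the line, and every erythroid, surface epithelial and pluripotency member below it.

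Genes of neurogenic progenitors and neurons were present beside them. Of 16 neurogenic genes 14 reached 1 FPKM, with a median of 39.7 FPKM. Sox4, an HMG-box factor of neuronal commitment, was listed at 370, 334 and 358 FPKM (354 ± 18.2, rank 144), and Sox11 at 182, 170 and 175 (176 ± 6.22). Neurog2, a proneural factor of the cortex, was lower, at 6.09, 6.85 and 6.4 FPKM (6.45 ± 0.380). Neurog1 (0.366 FPKM) and Neurod4 (0.551 FPKM) were the members under 1 FPKM. Eomes, a T-box factor of cortical intermediate progenitors, was at 7.56, 10.2 and 7.42 FPKM (8.40 ± 1.58), and Tbr1, the T-box factor of early cortical neurons, at 21.4 ± 2.19.

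All 38 neuronal genes reached 1 FPKM, with a median of 25.2 FPKM. Those of the growing cytoskeleton were highest, led after Tubb3 by Map2, a dendritic microtubule protein (335 ± 11.6 FPKM), Gap43 of the growth cone (313 ± 19.7) and Crmp1 (255 ± 5.79). Dcx, doublecortin of migrating neurons, was at 131 ± 8.71 FPKM. Genes of the synaptic vesicle and membrane were lower, with Vamp2 at 70.9 ± 4.96, Syp at 41.4 ± 3.39, Snap25 at 26.2 ± 1.39 and Syt1 at 24.2 ± 1.47 FPKM. Rbfox3, which encodes the mature neuronal antigen NeuN, was at 5.86, 5.72 and 7.0 FPKM (6.19 ± 0.701). Nhlh2 was the lowest member at 1.27 ± 0.324. The neuronal list as a whole summed to between 3130 and 3224 FPKM per library.

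Region genes were mainly those of the forebrain. All 6 telencephalic genes reached 1 FPKM, with a median of 32.2 FPKM. Otx2, a homeobox factor of the anterior brain, was listed at 37.2, 33.8 and 34.5 FPKM (35.2 ± 1.81). Six3, which also acts in the anterior forebrain, was at 22.7 ± 1.51 FPKM and Otx1 at 14.3 ± 1.39. Of 27 genes that mark other brain regions or the spinal cord 6 reached 1 FPKM, with a median of 0.191 FPKM. Of these, 2 were at 5 FPKM or more, namely Nkx2-1, which the ventral telencephalon also uses (14.3 ± 1.69), and a member not named here. The others were Tal2 (2.03 ± 0.652), En2 (1.46 ± 0.113), Barhl2 (1.31 ± 0.374) and Lmx1a (1.13 ± 0.188). Lbx1 was listed at 0. None of the 39 Hox cluster symbols, which pattern the hindbrain and cord, reached 1 FPKM. The highest, Hoxa13, was at 0.0245, and 28 were listed at 0.

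Both ventral and dorsal programmes of the telencephalon were expressed, and the ventral list had the higher median. All 26 ventral and GABAergic genes reached 1 FPKM, with a median of 22.0 FPKM. Dlx1 was listed at 102, 98.0 and 93.4 FPKM (97.7 ± 4.22), Dlx2 at 84.0 ± 6.8, Meis2 at 75.1 ± 6.03 and Dlx5 at 63.3 ± 4.35. The antisense genes Dlx1as (61.2 FPKM) and Dlx6os1 (60.8 FPKM) overlap this family, and whether strand was used in counting is not given, so reads of such pairs cannot be told apart. Sst, the neuropeptide somatostatin, was at 101, 75.8 and 78.8 FPKM (85.1 ± 13.6), with control 1 above both others. Gad1 and Gad2, the enzymes of GABA synthesis, were at 33.7 ± 1.17 and 21.8 ± 1.94 FPKM. Nkx2-1 and Lhx6, factors of the medial ganglionic eminence, were at 14.3 ± 1.69 and 6.04 ± 0.582. Of 22 dorsal genes 20 reached 1 FPKM, with a median of 12.7 FPKM. For transcription factors alone the medians were closer, at 22.1 FPKM for 17 ventral and 17.6 FPKM for 17 dorsal genes. Lhx2, also on the dorsal list, was at 90.8 ± 2.33 FPKM, between Dlx1 and Dlx2 by its mean. Emx2 was at 29.2 ± 1.00 and Emx1 at 17.8 ± 0.663 FPKM, and Dlx1 exceeded Emx1 5.49 ± 0.438 times. Slc17a6, the vesicular glutamate transporter of young neurons, was at 2.10 ± 0.156 FPKM, and Gad1 exceeded it 16.1 ± 0.948 times. Wnt8b, a signal of the cortical hem, was listed at 6.56, 10.1 and 11.1 FPKM. Reln, the secreted protein of Cajal-Retzius cells, was at 12.4, 18.5 and 18.0 FPKM. Control 1 was the lowest library for both genes. It was the highest for the summed ventral list, at 846 FPKM against 779 and 750 in control 2 and 3.

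Glial genes were uneven. Olig1, which neighbours Olig2, was listed at 216, 242 and 222 FPKM (227 ± 13.5) and exceeded Olig2 1.67 ± 0.0543 times. Of 17 oligodendrocyte lineage genes 11 reached 1 FPKM, with a median of 1.89 FPKM. Of all symbols 52.0% did, with a median of 1.42 FPKM. Of protein coding symbols 58.1% did, with a median of 3.30 FPKM. Sox8 was at 23.7 ± 2.05, Cnp at 16.2 ± 1.25 and Pdgfra, the receptor of oligodendrocyte precursors, at 7.0 ± 0.0540 FPKM. Sox10, the factor of committed oligodendrocyte cells, was at 1.81, 2.54 and 1.31 FPKM (1.89 ± 0.618). Olig2 exceeded it 77.3 ± 25.1 times. Also on the oligodendrocyte list, Mbp was at 5.57 ± 0.721, Mag at 0.306 and Enpp6, the lowest member, at 0.0315 FPKM. Of 21 astrocyte genes 17 reached 1 FPKM and 13 reached 10, with a median of 15.8 FPKM. Aldoc (116 ± 9.86), Apoe (70.5 ± 9.45), Glul (65.9 ± 3.23) and Gja1 (55.4 ± 3.99), which radial glia also express, were high. Among later markers, Gfap, the astrocyte filament, was at 2.12, 2.64 and 2.31 FPKM (2.36 ± 0.267). S100b was at 0.686 ± 0.136 and Aqp4 at 0.577 ± 0.108 FPKM. These genes lay below the median of the list.

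Genes of cells that a telencephalic dissection could carry along were mostly at low levels. Beside the counts that follow, 52.0% of all symbols and 58.1% of protein coding symbols reached 1 FPKM. Of 15 microglial genes 2 reached 1 FPKM (4 when control 3 was left out), and members of the list ran from 0.0156 to 11.9 FPKM with a median of 0.338. Of 10 endothelial genes 2 did, Egfl7 at 3.08 and Cldn5 at 2.09 FPKM. The defining microglial genes Csf1r and Ptprc were at 0.338 and 0.0156 FPKM, and the defining endothelial genes Cdh5 and Pecam1 at 0.0498 and 0.247. Summed over their lists, microglial genes ran from 18.5 to 21.8 FPKM and endothelial genes from 7.44 to 8.63 FPKM across the libraries. Of 9 mural genes 5 reached 1 FPKM, led by Acta2, smooth muscle actin, at 11.0 ± 1.35. None of 11 erythroid, 7 surface epithelial or 7 pluripotency genes did, although Hbb-b1, a beta-globin off the erythroid list, was at 0.428, 2.28 and 0.564 FPKM, above 1 in control 2 alone. Of 10 choroid plexus and ependymal genes 4 did, namely Gmnc (6.82 ± 0.694), Foxj1 (3.65 ± 0.372), Ttr (2.50 ± 0.549) and Folr1 (1.27 ± 0.708). Sox10 was the member above 1 FPKM among 7 neural crest genes. Xist, the long noncoding RNA of the inactive X chromosome, was at 84.4 ± 14.5 FPKM and the Y-linked genes Eif2s3y, Ddx3y, Kdm5d and Uty at 27.6, 12.9, 5.62 and 5.38 FPKM. All 5 were above 1 FPKM in each library.

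Meningeal fibroblast genes differed between the libraries. Of the 11 on the list 8 had a mean of 1 FPKM or more, against 52.0% of all symbols. The median of 1.41 FPKM was near the 1.42 of all symbols. All 11 members of the list were lower in control 1 than in both other libraries. Of 12293 genes of at least 1 FPKM outside short RNA models, 4146 (33.7%) were. List members under 1 FPKM have no counterpart in that set, among them Foxc2 at 0.0147, 0.0648 and 0.0161 FPKM. Col1a1, a fibrillar collagen, was listed at 0.889, 2.95 and 3.23 FPKM, Col3a1 at 1.32, 4.71 and 5.02, and Col1a2 at 0.988, 2.09 and 2.26. The sum of the 3 collagens was 3.17 times higher in the mean of control 2 and 3 than in control 1. Pdgfra, also on this list, differed little, at 6.95, 6.99 and 7.06 FPKM. Summed over the list, levels were 17.6, 29.7 and 30.2 FPKM. Bgn (1.76, 4.72 and 5.34 FPKM) and Mgp (2.33, 4.01 and 4.49 FPKM), extracellular matrix genes off the list and named after their values were seen, were also lowest in control 1. Control 1 was likewise lowest for the mural list, at 30.02 FPKM against 39.6 and 38.8, and for Reln and Wnt8b above. The part of these cells in other differences between the libraries was not tested.

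Of 369 transcription factors in 29 families 200 reached 1 FPKM, 128 reached 10 and 15 reached 100, and 50 were listed at 0. Of all symbols 52.0% reached 1 FPKM, 31.5% reached 10 and 3.88% reached 100, and 23.9% were listed at 0. The counts of factors at 1, 10 and 100 FPKM are thus near the shares of all symbols. The median of the factors was 2.57 FPKM, against 1.42 for all symbols and 3.30 for protein coding symbols, of which 58.1% reached 1 FPKM. After Sox4, the highest included the nucleosome-binding protein Hmgn1 (252 ± 8.78 FPKM), Sox2, Olig1, the stress-response factor Atf4 (210 ± 14.5), Hes6 (190 ± 11.0), Sox11, the E-protein Tcf12 (155 ± 9.64), Tead2, a partner of YAP (155 ± 5.86), Id2, which blocks basic helix-loop-helix factors (146 ± 7.86) and Olig2. In this order the ranges over libraries overlapped between neighbours, except between Sox4 and Hmgn1, Hmgn1 and Sox2, and Sox11 and Tcf12. Families differed in how many members were used. All members of the E2F (8), ID (4), MYC and MAX (8), NFI (4) and MEIS and PBX (7) families reached 1 FPKM, as did 13 of 19 SOX genes. In contrast, only Pax6 of 9 PAX genes, Nkx2-1 and Nkx2-3 (1.77 FPKM) of 14 NKX genes, Tbr1 and Eomes of 15 T-box genes and none of 6 GATA genes did. Of 44 forkhead genes 16 reached 1 FPKM.

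**Figure D3:**
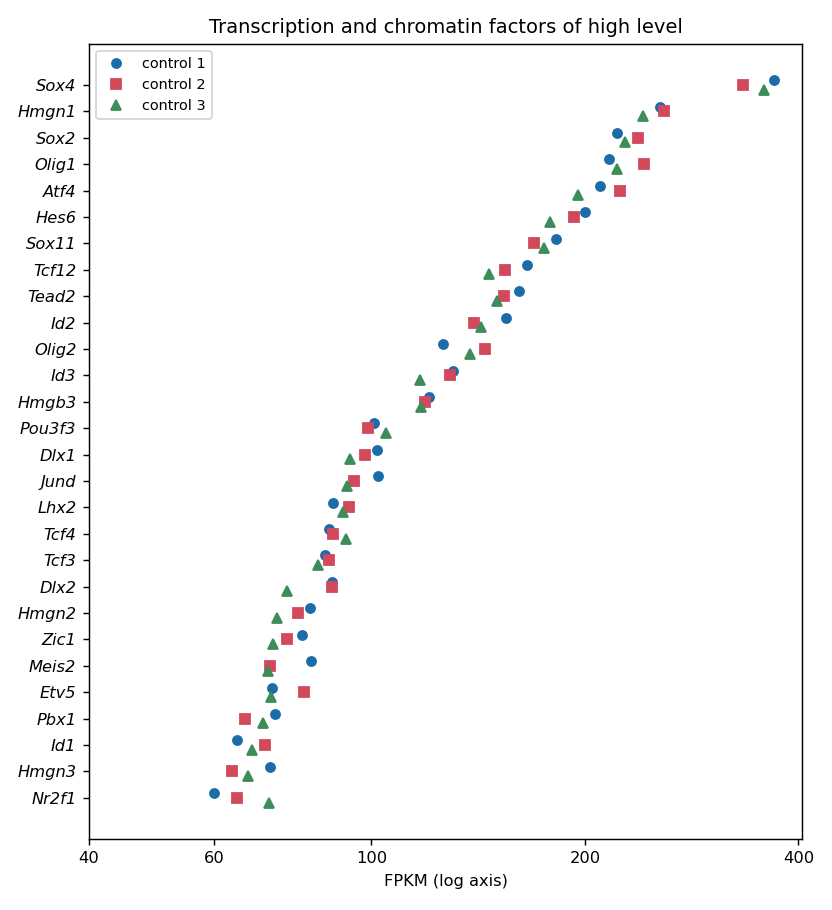
Level of transcription and chromatin factors among the highest (rows, in order of their mean) in FPKM on a log axis, with 1 symbol for each control library. Sox4 lies above all others in each library, and most neighbours in the order overlap.

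The cell cycle genes were all expressed. Each of 18 S phase, 20 mitotic and 14 G1 genes reached 1 FPKM, with medians of 52.4, 43.5 and 38.6 FPKM. Pcna, the replication clamp, was listed at 269, 282 and 274 FPKM (275 ± 6.25), and Rrm2, a ribonucleotide reductase subunit, at 140 ± 10.0. Among mitotic genes Ube2c was at 147 ± 12.8, Top2a at 113 ± 4.73 and Mki67 at 53.4 ± 3.51 FPKM. In G1, Cdk4, the kinase of the D cyclins, was at 774, 737 and 676 FPKM (729 ± 49.7, rank 52), and exceeded its relative Cdk6 (2.64 ± 0.199) 278 ± 33.7 times. Ccnd2 was at 223 ± 11.52 and Ccnd1 at 169 ± 15.1 FPKM. The inhibitors Cdkn1a (106, 132 and 132 FPKM) and Cdkn1b (79.8 ± 3.17) were also present, while Cdkn2a was at 4.15 ± 0.829. The S phase list summed to 1249, 1249 and 1161 FPKM, and the mitotic list to 995, 1079 and 1032, in control 1, 2 and 3.

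Notch signalling, by which a cell that carries a ligand keeps its neighbour undifferentiated, was represented at each step, with 21 of 26 genes at 1 FPKM or more and a median of 16.7 FPKM. Of the receptors, Notch1 was listed at 15.5, 18.9 and 17.7 FPKM (17.3 ± 1.73), Notch3 at 10.8 ± 1.25 and Notch2 at 6.41 ± 1.01, and Notch4, which vessels use, at 0.414. Of the ligands, Dner was at 98.3 ± 0.832, Dll1 at 43.0 ± 2.15, Dll3 at 36.3 ± 3.72 and Jag1 at 12 ± 1.30 FPKM. Lfng and Mfng, which modify the receptor, were at 26.7 ± 0.559 and 31.2 ± 4.49. Among the nuclear factors of this list Hes6, an antagonist of Hes1 that is also on the neurogenic list, was at 200, 193 and 178 FPKM. It exceeded Hes5 (27.5 ± 2.67) 6.95 ± 0.293 times. Hes1 was at 21.9 ± 1.55, Rbpj, the DNA-binding partner of the receptor, at 20.7 ± 0.418 and Hey1 at 17.5 ± 0.907 FPKM.

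Of 27 genes of fibroblast growth factor signalling, the pathway of the growth factor in the medium, 22 reached 1 FPKM, with a median of 20.6 FPKM. Of the receptors Fgfr1 was listed at 49.3, 53.6 and 54.1 FPKM (52.3 ± 2.61) and exceeded Fgfr3 (14.2 ± 1.35) 3.69 ± 0.228 times. Fgfr2 was at 6.73 ± 0.255 and Fgfr4 at 0.195. Of 8 ligands 4 reached 1 FPKM, with Fgf15 far the highest at 33.2 ± 1.67. Fgf2, the gene of the added factor, was listed at 0, 0.331 and 0.0822 FPKM, and Fgf8 at 0.0459, 0 and 0. All 12 feedback and target genes reached 10 FPKM. Dusp4, a phosphatase of ERK kinases, was at 186, 187 and 184 FPKM (186 ± 1.41), Spry2 at 126 ± 5.42, Dusp6 at 124 ± 2.82, Spry1 at 105 ± 4.16, Etv5 at 75 ± 4.63 and Etv4 at 50.9 ± 2.38. These target genes had a median coefficient of variation (CV, SD divided by mean) of 4.48%. That is near the 4.81% of all genes of mean at least 10 FPKM outside short RNA models.

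Of 15 genes that change with developmental age 14 reached 1 FPKM. Among RNA-binding proteins of early precursors Igf2bp3 was listed at 41.1, 42.1 and 39.4 FPKM (40.9 ± 1.39) and Lin28b at 2.30 ± 0.163, while Lin28a was at 0.272 ± 0.0363. Hmga2, an architectural factor of young stem cells, was at 11.1 ± 1.37. Nr2f1 and Nr2f2, the COUP-TF receptors, were at 65.4 ± 5.86 and 18.7 ± 0.593. Of the NFI factors, which promote gliogenesis, Nfib was at 63.6 ± 3.50, Nfia at 22.0 ± 2.06, Nfix at 15.9 ± 2.76 and Nfic at 5.64 ± 0.652 FPKM.

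Of 18 long noncoding RNAs found in the files 17 reached 1 FPKM, with a median of 32.4 FPKM. Malat1, a nuclear RNA, was listed at 129, 129 and 192 FPKM (150 ± 36.3), Meg3 at 26.4, 25 and 36.4 and Xist at 78.0, 74.2 and 101. Control 3 was the highest library for all 3. Of the imprinted genes, after Nnat, Mest was at 740 ± 26.6, Ndn at 210 ± 4.92 and Peg10 at 126 ± 1.76 FPKM, and H19 at 11.7 ± 1.62.

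Several large families were listed at or near 0. None of 1116 olfactory receptor, 332 vomeronasal receptor, 38 taste receptor, 61 defensin or 52 keratin-associated symbols reached 1 FPKM, and 1033 of the olfactory receptors were listed at 0. Of 52 keratins only Krt10 did, at 4.37 ± 0.657 FPKM. By contrast 324 of 362 Zfp zinc finger symbols did, with a median of 7.49 FPKM.

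Short RNA models, which a poly(A) library is not made to measure, held the highest values. They took 6.52%, 5.94% and 6.33% of the FPKM total in control 1, 2 and 3. Of 1101 microRNA symbols 968 were listed at 0 and 128 reached 1 FPKM. The mature sequences of the 3 highest in the RefSeq table, with that of miR-9, a microRNA well known in neural precursors, are printed 5′ to 3′ with the seed (bases 2 to 8) in capitals, to show which sequences these models are named for.
miR-682: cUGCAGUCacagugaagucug
miR-6236: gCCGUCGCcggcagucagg
miR-703: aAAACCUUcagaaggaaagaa
miR-9-5p: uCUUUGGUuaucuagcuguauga
Mir682 was listed at 5034, 3765 and 4636 FPKM over a model of 96 bases at chr13:75645046-75645141, which overlaps the pseudogene Gm4149. Mir6236 was at 5209, 3401 and 3732 FPKM over 123 bases at chr9:110281287-110281409. Mir703 was at 1923, 1893 and 1936 FPKM over 109 bases at chr5:98475556-98475664, within the span of Cfap299. Mir9-2 and Mir9-3 were listed at 0 and Mir9-1 at 0, 0 and 23.6 FPKM. A length-scaled value of so short a model rests on few bases, and all 104 symbols with a mean of at least 10 FPKM and a library at 0 were short RNA models.

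Promoter composition followed the level of expression. The RefSeq windows could be matched to 16753 symbols, the first start being used for the 2609 with several. The ratio of observed to expected CpG pairs had a median of 0.156 for the 3500 genes listed at 0, 0.258 below 0.1 FPKM (above 0), 0.438 from 0.1 to 1, 0.717 from 1 to 10, 0.817 from 10 to 100, 0.847 from 100 to 1000 and 0.871 for the 15 genes above 1000, and the median over all was 0.586. Fabp7 (0.276) and Vim (0.421), both printed above, lay below that median while Sox2 (0.819) lay above it. The 924 olfactory receptor promoters had a median of 0.107. This is a description across genes, which are not replicates. TATAAA, searched on the gene's own strand from 40 to 17 bases before the start, was in 2.76% of all windows (463). It was in 6.20% of those of genes listed at 0, in 0.580% from 10 to 100 FPKM, in 2.12% from 100 to 1000 and in 2 of the 15 above 1000.

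**Figure D4:**
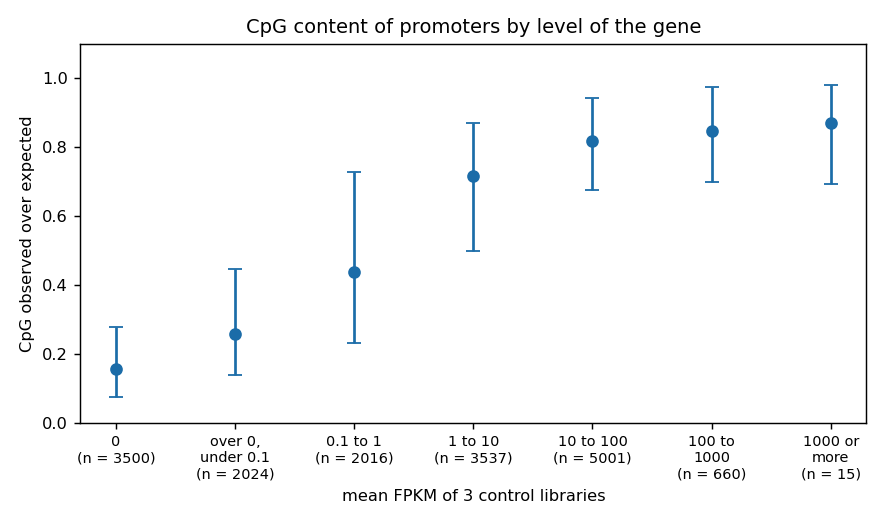
Ratio of observed to expected CpG pairs in the promoter window against the mean level of the gene (class of FPKM), with points at the median, bars from the lower to the upper quartile and n the number of promoters. The median rises from 0.156 for genes listed at 0 to 0.871 above 1000 FPKM.

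Ribosomal protein genes are known for a pyrimidine tract at the start of transcription. Of 65 such windows 21 (32.3%) held CTTTC, or alternatively CTTCC, or else the variant CTCTT on the gene's own strand between 10 bases before and 12 after the start, against 9.48% (1589) of all windows. Overlapping matches were counted once per promoter. Stretches of 30 bases around 5 starts that hold the tract (in capitals, 5′ to 3′ on the gene's own strand, from RefSeq on GRCm38.p6) show its place.
Rps26, chr10:128626492-128626521, minus strand: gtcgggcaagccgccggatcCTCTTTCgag
Rps9, chr7:3704026-3704055, plus strand: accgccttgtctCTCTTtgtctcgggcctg
Rpl38, chr11:114668565-114668594, plus strand: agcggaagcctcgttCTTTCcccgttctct
Rpl35, chr2:39005117-39005146, minus strand: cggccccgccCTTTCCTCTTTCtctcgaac
Rplp2, chr7:141447636-141447665, plus strand: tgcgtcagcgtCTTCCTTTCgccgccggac

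The libraries differed little from each other for expressed genes. For 7409 genes of mean at least 10 FPKM, outside short RNA models, the median CV was 4.81%. Of these genes 6808 (91.9%) stayed under 10%, and 32 (0.432%) exceeded 20%. The median CV was 118% below 0.1 FPKM, 38.6% from 0.1 to 0.5, 11.4% from 1 to 5 and 4.57% at 100 FPKM or more. It was 101% for the 158 short RNA models at 10 FPKM or more. Between pairs of libraries, 23 to 33 of 12293 genes differed by more than 1 on the log2(FPKM + 1) scale, and Pearson correlations across genes were 0.994 to 0.995. Control 1 was the library farthest from the middle value for 37.3% of genes, control 2 for 32.9% and control 3 for 29.9%. Among genes of at least 10 FPKM, Atp6v0c, a proton pump subunit, spread most, at 7.36, 71.2 and 14.8 FPKM, while its pseudogene Atp6v0c-ps2 was at 159, 94.4 and 140. Ndufs5, of respiratory complex I, was listed at 0.00396, 94.1 and 35.2 FPKM, and Rpl30 at 17.8, 45.5 and 42.4. Reads of such genes and of their near-identical copies cannot be told apart from these files. At the other end Lrpprc, a mitochondrial RNA-binding protein, was at 26.7, 26.6 and 26.6 FPKM.

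**Figure D5:**
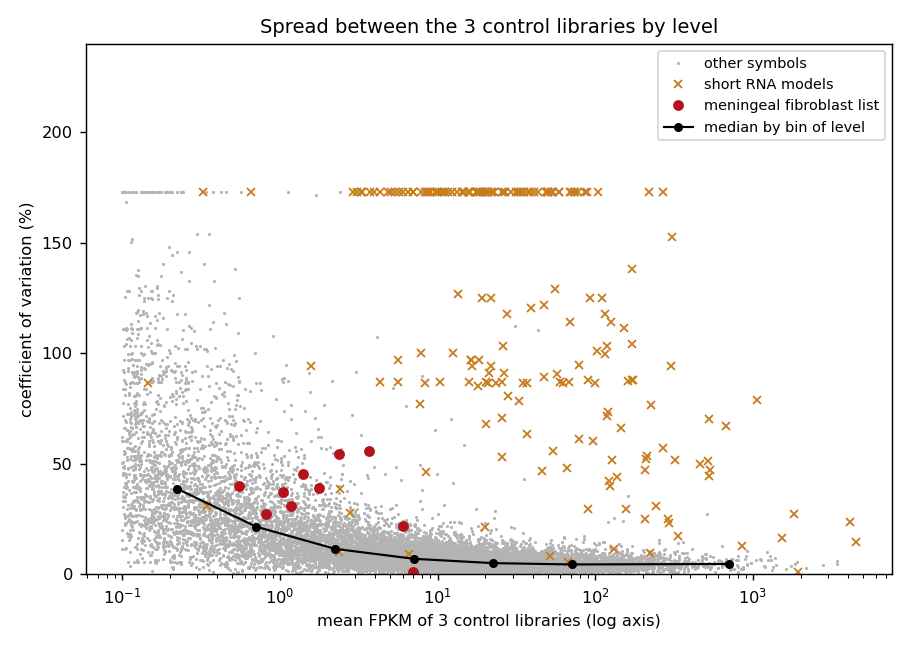
Coefficient of variation over the 3 control libraries (%) against the mean level (FPKM, log axis), 1 grey point per gene of mean at least 0.1 FPKM, crosses for short RNA models, red points for the meningeal fibroblast list and a black line for the median in each class of level. The median falls from 38.6% between 0.1 and 0.5 FPKM to 4.57% at 100 FPKM or more. The short RNA models lie mostly above it, and the fibroblast genes drawn, apart from Pdgfra, lie above it too. Foxc2 of the fibroblast list, at 0.0318 FPKM, is not drawn.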

How the data were processed

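Neural stem and precursor cells of the mouse telencephalon were profiled by RNA sequencing, and the 3 control libraries were used. The Nfia libraries and the immunoprecipitation samples were not analysed here. The submitters' processing notes name TopHat, Bowtie 1, SAMtools, Cufflinks, Cuffdiff and MACS 1.4 with the mm10 build, without saying which step each served. The authors deposited 1 table per library of a gene symbol and a value, with no header. Nothing in the files names the unit of the values the authors deposited, which were read as FPKM, made from mapped fragments before deposit, from their range and from the tools named. The sources used here give neither fragment counts nor the use of strand. RNA was isolated with poly(A) beads and a directional kit, per the labels' protocols.

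Tables were joined by symbol with pandas 2.3.3 on Python 3.11.15. No scaling was added. Means, SD and CV were taken over the 3 libraries, and ranks over all 23997 symbols. A gene was counted as expressed at a mean of at least 1 FPKM, and spread was summarised at 10 FPKM or more without short RNA models. A pseudocount of 1 was used on the log2 scale between pairs of libraries. The rule for named genes was the label markers, the 20 highest genes outside short RNA models, the 12 highest transcription factors, up to 5 of the highest members of each list with its defining members under 1 FPKM, the 5 highest short RNA models, and the genes of largest and smallest CV. Further list members, and a few genes off the lists, were named for their role after their values were seen, and not every gene the rule allows is printed. The members and lists were chosen with earlier results of these data known. No test was run, since there was 1 group. The computation of CV and of relative depth (from the step between values of genes of mean under 0.3 FPKM) was checked on simulated data. Alternatives were other thresholds, scalings, totals, promoter sets and leaving out each library. Some genes that the rule would name are not reported here.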

Additional observations from a re-analysis of the deposited data

How the results depend on the processing

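The number of genes at 1 FPKM or more, 12487 in the main computation, lay between 9689 (5 FPKM) and 13396 (values rescaled to a common total). Of the 12 highest transcription factors 11 or 12 were shared with every other ordering tried. Over single gene lists, 20 of 217 counts moved by more than 1.5 times under an alternative, and the meningeal fibroblast list went from 8 to 3 of 11 members when 1 FPKM was asked of each library. The microglial list went from 2 to 4 of 15 without control 3 and to 6 at 0.5 FPKM or after rescaling. The ribosomal protein share of 7.02% became 7.49% without short RNA models and 7.45% without the 10 highest symbols, and the microRNA share of 4.69% became 2.27% without the 10 highest symbols, which include microRNA models. The median CV of 4.81% became 5.99% for genes of at least 1 FPKM and 8.70% with no filter, and lay between 3.72% and 4.13% when 1 library was left out, which leaves 2 libraries for the SD. The difference in mean CpG ratio between promoters of genes at 1 FPKM or more and of genes listed at 0 was 0.550. It was 0.622 for the 1000 highest genes against those at 0 and 0.517 without ribosomal protein, receptor and microRNA symbols. It lay between 0.542 and 0.545 when 1 library was left out. The summed fibroblast list, an alternative chosen after seeing the data, was 25.9 FPKM over all 3 libraries, and 29.95 without control 1. No paired analysis was possible because only 1 group was described and no result came from a test. Where depth is unknown, values under about 1 FPKM, with a median CV of 21.5% or more, limit what can be read from low genes.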
